A study of Mus musculus with 4 samples.

Results

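The genes described here encode the mitochondrial enzymes that burn fatty acids, together with enzymes of ketone body use, the connected breakdown of branched-chain and other amino acids, and the kinase Pdk4. They were taken as a named list of 37 genes, and a gene was measured where the platform's probe table gave a probe set with that gene as its single symbol. This held for 29 of the 37, with 35 probe sets, out of 8251 genes and 12422 probe sets on the array. Mut, the methylmalonyl-CoA mutase, was matched under its current symbol Mmut. No single-symbol probe set was matched for Acadsb, Acat1, Acot2, Acsl1, Bdh1, Cpt1b, Hadha or Pcca, and these 8 genes were not analysed here. Where a gene had several probe sets (6 of the 29), the one with the highest mean intensity stands for it, and disagreement with the others is given.

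RNA was pooled from aortas of adult male C57BL/6J mice. The rosiglitazone group, replicates 1 and 2, received rosiglitazone at 25 mg/kg per day for 21 days. Rosiglitazone is a thiazolidinedione that activates the nuclear receptor PPARγ. The vehicle group, replicates 3 and 4, received vehicle for the same 21 days. Each group had 2 arrays, whose number limits the precision. The animals per pool are not given in the sources used here, and the labels leave unsaid whether replicate arrays drew on different pools. The p-values therefore reflect array-to-array spread alone, which may be technical. The comparison asks how transcripts of these aortic samples, which also held fat (see the markers below), differ after long treatment with the drug.

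Long-chain fatty acids are first joined to coenzyme A by acyl-CoA synthetases. The carnitine shuttle then carries them across the mitochondrial inner membrane. In the matrix, each turn of the beta-oxidation spiral removes an acetyl-CoA through a dehydrogenation, a hydration, a further dehydrogenation and a cleavage. Electrons of the first dehydrogenation pass through the flavoprotein ETF and its dehydrogenase to the respiratory chain. Many of these genes are known targets of PPAR receptors, which bind DNA with RXR at direct repeats of AGGTCA separated by a single base. Brown adipocytes, which also occur in the fat around the mouse aorta, are rich in these enzymes and use them to make heat.

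RefSeq promoters of the GRCm38.p6 build, 250 bases before to 50 bases from the start base on, were found for 26 of the 29 measured genes (27 promoters) and searched on both strands for AGGTCANAGGTCA. With at most 2 mismatches a match lay in 3 of the 27 promoters, or 11.1%, against 3.86% of all 32851 promoters in the table. With at most 1 mismatch there was 0. A single AGGTCA, which the longer motif contains, lay in 18.5% of the members' promoters and 16.3% of all. The 3 promoters with a match are shown because they carry the nearest likeness to this motif among the 27 promoters searched. Sequence outside these windows was not searched. They are those of Echs1 (chr7:140116397-140116521, minus strand), Etfa (chr9:55512219-55512343, minus strand) and Slc25a20 (chr9:108662036-108662160, plus strand), each from 100 bases before the start base through the first 25 bases of the transcript, 5′ to 3′ on the gene's strand. Capitals mark the match, which in Etfa is read on the opposite strand.
Echs1: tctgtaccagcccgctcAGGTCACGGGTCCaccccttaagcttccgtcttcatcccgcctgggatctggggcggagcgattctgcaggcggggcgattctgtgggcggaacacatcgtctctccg
Etfa: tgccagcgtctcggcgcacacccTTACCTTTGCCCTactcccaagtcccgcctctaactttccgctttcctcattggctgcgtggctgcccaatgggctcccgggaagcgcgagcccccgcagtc
Slc25a20: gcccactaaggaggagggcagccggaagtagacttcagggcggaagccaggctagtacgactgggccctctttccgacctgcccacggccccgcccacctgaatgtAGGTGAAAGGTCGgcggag
The match began 83 bases before the start base in Echs1, 77 bases before it in Etfa, and at base 7 of the transcript in Slc25a20. These matches are descriptions of sequence, and binding was not measured.

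Most of the measured genes of this list had somewhat more signal in the aortas of rosiglitazone-treated mice, by at most 2.05-fold, and none passed the test across all probe sets. Of the 29 measured genes 22, or 75.9%, had a log2 fold change (rosiglitazone minus vehicle) above 0, against 46.3% of all measured genes. The median log2 fold change was 0.26, against -0.00027 over all measured genes. Both rosiglitazone arrays lay above both vehicle arrays for 16 of the 29, or 55.2%, against 18.0% of all genes. Both lay below for 4 of the 29, or 13.8%, against 21.1%. The remaining 9 overlapped.

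Intensities below a floor of 148, the 20th percentile of all values, were raised to it before log2 was taken, and 25 of the 29 genes were bright enough to test (a mean log2 intensity at or above that of 414, the 40th percentile). In limma with Benjamini-Hochberg adjustment over 7134 probe sets, 0 of the 25 passed an adjusted p of 0.05, where 0.364% of all probe sets passed. Adjusted p ran from 0.252 for Cpt2 to 0.979 for Acadl. At an unadjusted p under 0.05, 7 were higher, against 5.05% of 5465 tested genes, and 1, Acsl5, was lower, against 5.98%. The 7 were Cpt2, Etfdh, Bckdhb, Acadm, Eci1, Slc25a20 and Gcdh. Without the intensity trend in limma 0 of the 25 had an unadjusted p under 0.05, as was also so without vehicle replicate 4.

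**Figure D1:**
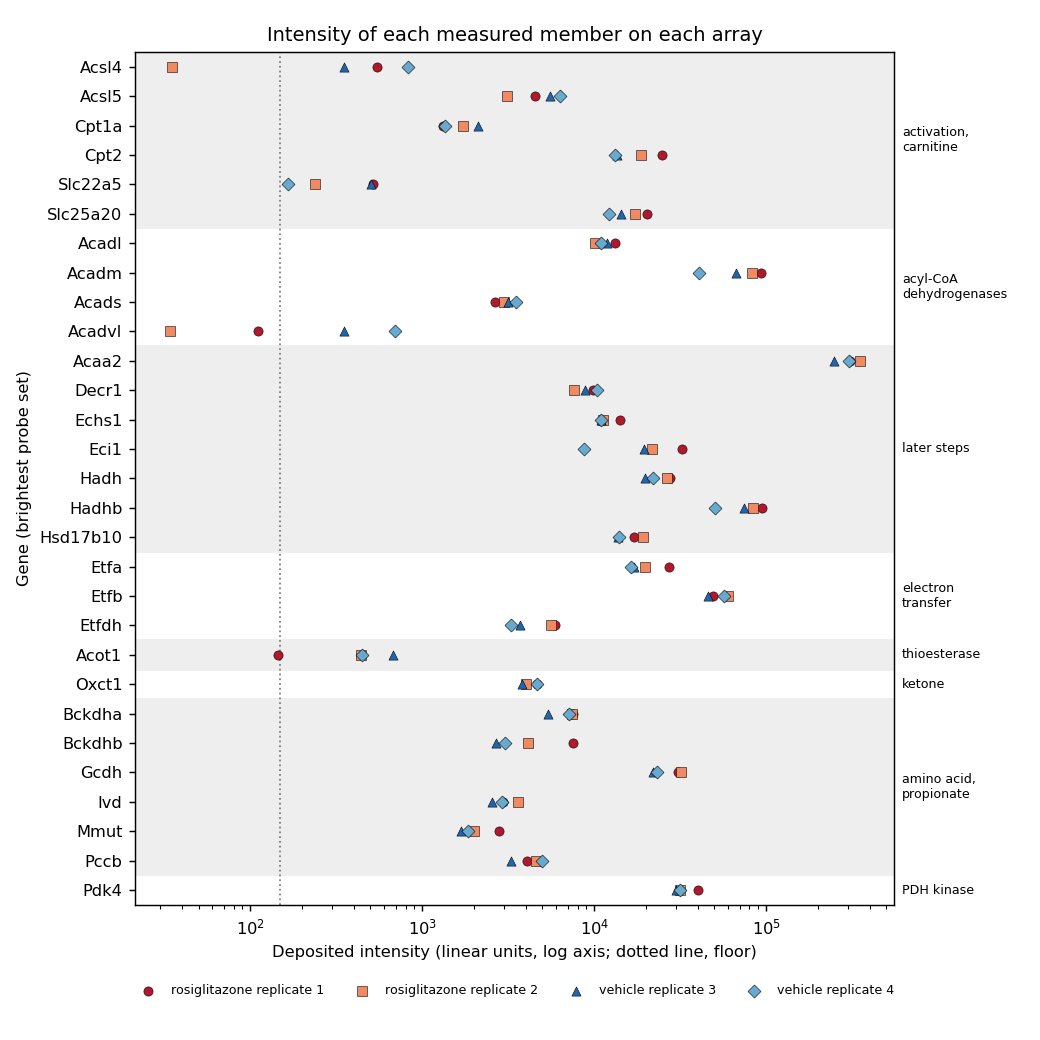
Deposited intensity (log axis) of the brightest probe set of each of the 29 measured genes on the 4 arrays, ordered by role, with the floor of 148 as a dotted line. Rosiglitazone symbols lie to the right of both vehicle symbols for 16 genes and to the left for 4.

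Markers of other cell types differed between the same arrays. Of 9 measured brown adipocyte markers 8 lay above 0, with a summed intensity of 396605 to 428276 on the rosiglitazone arrays and 281439 to 286358 on the vehicle arrays. Fabp3, a carrier of fatty acids in the cytosol, was the 1 gene of the list past the adjusted p (log2 fold change 1.55, adjusted p = 0.0240). The defining genes Ucp1 and Cidea were bright on every array and made up most of the brown adipocyte sums. Ucp1 had 97796 and 73418 after rosiglitazone and 54981 and 33472 after vehicle, and Cidea 240828 and 286124 against 188712 and 199365. Of 8 white adipocyte markers 5 lay above 0 and 3 below, with sums of 244904 to 276338 and 179648 to 185573. Most of these sums came from the defining gene Adipoq, at 165554 and 195068 after rosiglitazone and 125080 and 136822 after vehicle. Lep, the other defining gene, overlapped, with a log2 fold change of -0.14, and its second probe set, too dim to test, had 0.34. All 9 measured smooth muscle markers, those of the main cell of the aortic wall, lay below 0 by their brightest probe sets. Their sums were 57645 to 63133 against 120168 to 143057, and Tagln passed (adjusted p = 0.0455). A second probe set of Itga8, too dim to test like the first, had 0.21. All 9 measured macrophage markers lay below 0 as well by their brightest probe sets. Their sums were 20408 to 20609 against 58555 to 63665, and Cd14 passed (adjusted p = 1.45e-04). Other probe sets of Laptm5, Cd68 and Lyz2 also lay below 0. That of Csf1r was near 0, at -0.018, and that of Adgre1, too dim to test, had 0.30. The calls of Fabp3, Tagln and Cd14 were each lost with no filter on dim probe sets (adjusted p of 0.284, 0.295 and 0.0863). They were lost too without the intensity trend in limma, at 0.335, 0.429 and 0.107. The Tagln call was also lost with the floor at the 10th percentile (0.0558), with 16 added in place of a floor (0.0553) and with median-centred arrays (0.0952). Each call was lost as well without vehicle replicate 3 and without vehicle replicate 4. There the log2 fold changes were 1.70 and 1.39 for Fabp3, -1.25 and -1.28 for Tagln and -2.91 and -2.95 for Cd14. The 21 cardiac and skeletal muscle markers had overlapping sums, 45781 to 52019 against 51117 to 53264, with 10 above 0 and 10 below. The 4 hepatocyte markers also overlapped, at 1164 to 1764 against 1696 to 2199. The part of these cell types in the members' differences was not tested, and in such pooled tissue fewer cells of a type and less RNA per cell cannot be told apart. The smooth muscle genes Acta2 and Myh11 were present on every array, as the labelled tissue calls for. Acta2 had 28866 and 33031 after rosiglitazone and 56544 and 80133 after vehicle, and Myh11 1390 and 1858 against 5118 and 4356. Cidea and Adipoq were each brighter than Acta2 on every array, though intensities of different probe sets compare only roughly. The samples thus held fat as well as vessel wall, and the members' values cannot be assigned to either.

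**Figure D2:**
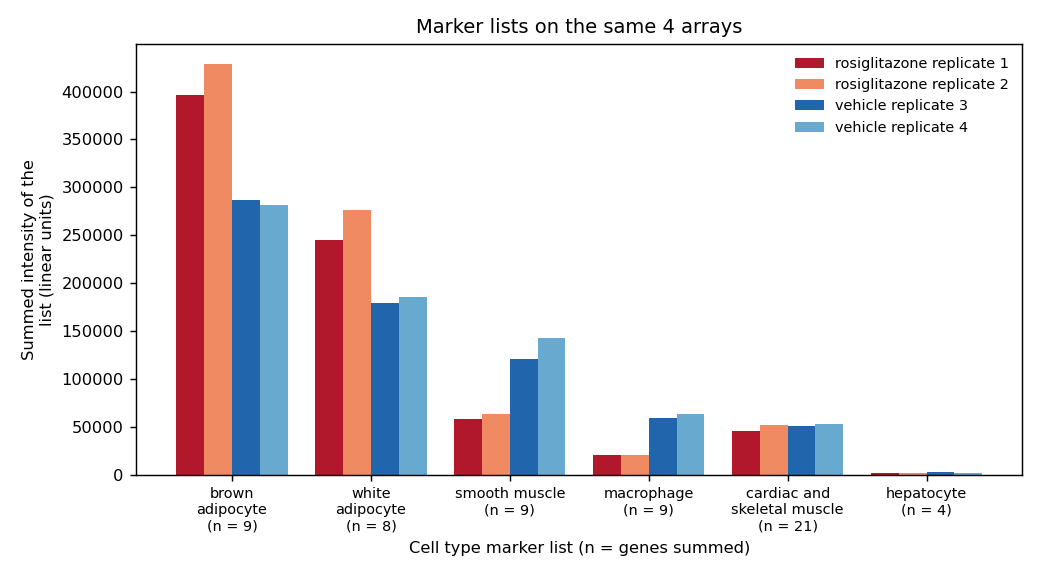
Summed intensity (linear axis from 0) of the measured genes of 6 cell type marker lists, 1 bar per array. Brown and white adipocyte sums were higher on both rosiglitazone arrays, smooth muscle and macrophage sums were lower on both, and the muscle and hepatocyte sums overlapped. The adipocyte sums came mostly from Cidea and Ucp1 (brown) and Adipoq (white).

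Activation and the carnitine shuttle went both ways. Cpt2, the inner carnitine palmitoyltransferase that returns fatty acids to coenzyme A inside the mitochondrion, had intensities of 24942 and 18748 after rosiglitazone and 13532 and 13201 after vehicle. Its log2 fold change was 0.69 ± 0.22 (SE), or 1.62-fold, the smallest p among the members (adjusted p = 0.252 in limma). Both treated arrays lay clear of the vehicle arrays, by more than the replicates of either group differed. Slc25a20, the carnitine-acylcarnitine translocase whose promoter is shown above, had 20292 and 17287 against 14243 and 12166. The log2 fold change was 0.51 ± 0.21 (SE) (adjusted p = 0.413), again without overlap. Cpt1a, the outer transferase at the regulated step, did not follow these partners. It had 1319 and 1722 against 2123 and 1356, a log2 fold change of -0.17 with a 95% interval from -0.996 to 0.654, and overlapping groups. The interval is wide enough to hold a difference as large as that of Slc25a20.

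Among the acyl-CoA synthetases, which differ in the fatty acids they prefer, Acsl5 had 4524 and 3121 after rosiglitazone and 5540 and 6290 after vehicle. Both treated arrays were lower, with a log2 fold change of -0.65 and a standard error of 0.26 (adjusted p = 0.411). Acsl4, which favours arachidonate, was too dim to test, at 547 and 35 against 349 and 831. Its arrays disagreed within the rosiglitazone group by 15.6-fold, and its other probe set, at 214 and 95 against 76 and 78, had both vehicle arrays under the floor and pointed the other way (log2 fold changes of -0.92 and 0.27). Slc22a5, the plasma membrane carnitine transporter OCTN2, was dim too, at 517 and 239 against 506 and 165, with overlap. A second Cpt2 probe set lay between 16 and 171 on all arrays and carried no usable signal.

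At the first oxidation step the brightest probe sets placed 2 of 4 measured genes above 0 and the other 2 under it. The middle of these values was -0.11. This split does not show that the step went both ways. Of the genes under 0, Acads had probe sets that disagreed and Acadvl was too dim to test. Of those above 0, Acadl overlapped, and only Acadm had groups that separated. Acadm, the medium-chain acyl-CoA dehydrogenase, had 93382 and 82498 after rosiglitazone and 66417 and 40829 after vehicle. This gave a log2 fold change of 0.75 ± 0.26 (SE), or 1.69-fold (adjusted p = 0.325), and the vehicle arrays differed from each other by 1.63-fold, about as much as the groups. It was 0.40 without vehicle replicate 4 and 1.10 without vehicle replicate 3. The long-chain enzyme Acadl showed no such separation, at 13223 and 10102 against 11795 and 10890. The estimate was a log2 fold change of 0.03 with a 95% interval from -0.47 to 0.52, and the difference between these genes was not tested. It turned to -0.056 under quantile normalization.

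Acads, the short-chain enzyme, was read by 2 probe sets that disagreed. The brighter had 2637 and 2986 against 3161 and 3501, a log2 fold change of -0.25 with both treated arrays lower (adjusted p = 0.787). The other had 5603 and 1787 against 2369 and 1216, a log2 fold change of 0.90 with overlap and a standard error of 0.53 (adjusted p = 0.585). No direction can be given for Acads. Acadvl, the very-long-chain enzyme bound to the inner membrane, was dim, at 111 and 34 against 349 and 698. Both treated arrays lay under the floor, so the log2 fold change of -1.74 compares the vehicle arrays with that floor. It was -2.42 with the floor at the 10th percentile, -1.24 without vehicle replicate 4 and -2.24 without vehicle replicate 3. The other Acadvl probe set lay under the floor on all 4 arrays. Acadvl was not tested.

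In the later steps of the spiral 6 of 7 measured genes lay above 0, all 6 without overlap. The share of all genes higher without overlap was 18.0%. Eci1, the enoyl-CoA isomerase that prepares unsaturated fatty acids, had the largest positive log2 fold change of the 29. Its intensities were 32594 and 21726 after rosiglitazone and 19367 and 8737 after vehicle. The log2 fold change was 1.03 ± 0.36 (SE), or 2.05-fold (adjusted p = 0.325), and it ranged from 0.46 without vehicle replicate 4 to 1.61 without vehicle replicate 3. The size of this difference thus rests on the vehicle arrays, which differed by 2.22-fold. Hadhb, the thiolase subunit of the trifunctional protein, had 94797 and 83611 against 74135 and 50368. The corresponding log2 fold change was 0.54 ± 0.24 (SE) (adjusted p = 0.461), and 0.26 without vehicle replicate 4.

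Hadh and Hsd17b10 had smaller differences and closer replicates than Eci1 and Hadhb. Hadh, the short-chain 3-hydroxyacyl-CoA dehydrogenase, had 27674 and 26649 after rosiglitazone and 19805 and 22051 after vehicle. That is a log2 fold change of 0.38 ± 0.19 (SE) (adjusted p = 0.533). Hsd17b10, a related dehydrogenase that also works in isoleucine breakdown and in mitochondrial tRNA processing, had 17002 and 19166 against 13813 and 13996. The log2 fold change was again 0.38, with a standard error of 0.20 (adjusted p = 0.541). In both genes the gap between the groups was wider than the gaps between replicates. Acaa2, the thiolase of the last step, had 307384 and 350875 against 246463 and 303086, a log2 fold change of 0.26 with treated replicate 1 barely above vehicle replicate 4. Echs1, the short-chain hydratase whose promoter is shown above, had 14190 and 11319 against 11027 and 11009, a log2 fold change of 0.20. Only treated replicate 1 stood apart there. Decr1, the dienoyl-CoA reductase, had 9825 and 7596 against 8839 and 10419 and overlapped, with a log2 fold change of -0.15 and a 95% interval from -0.66 to 0.36.

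**Figure D3:**
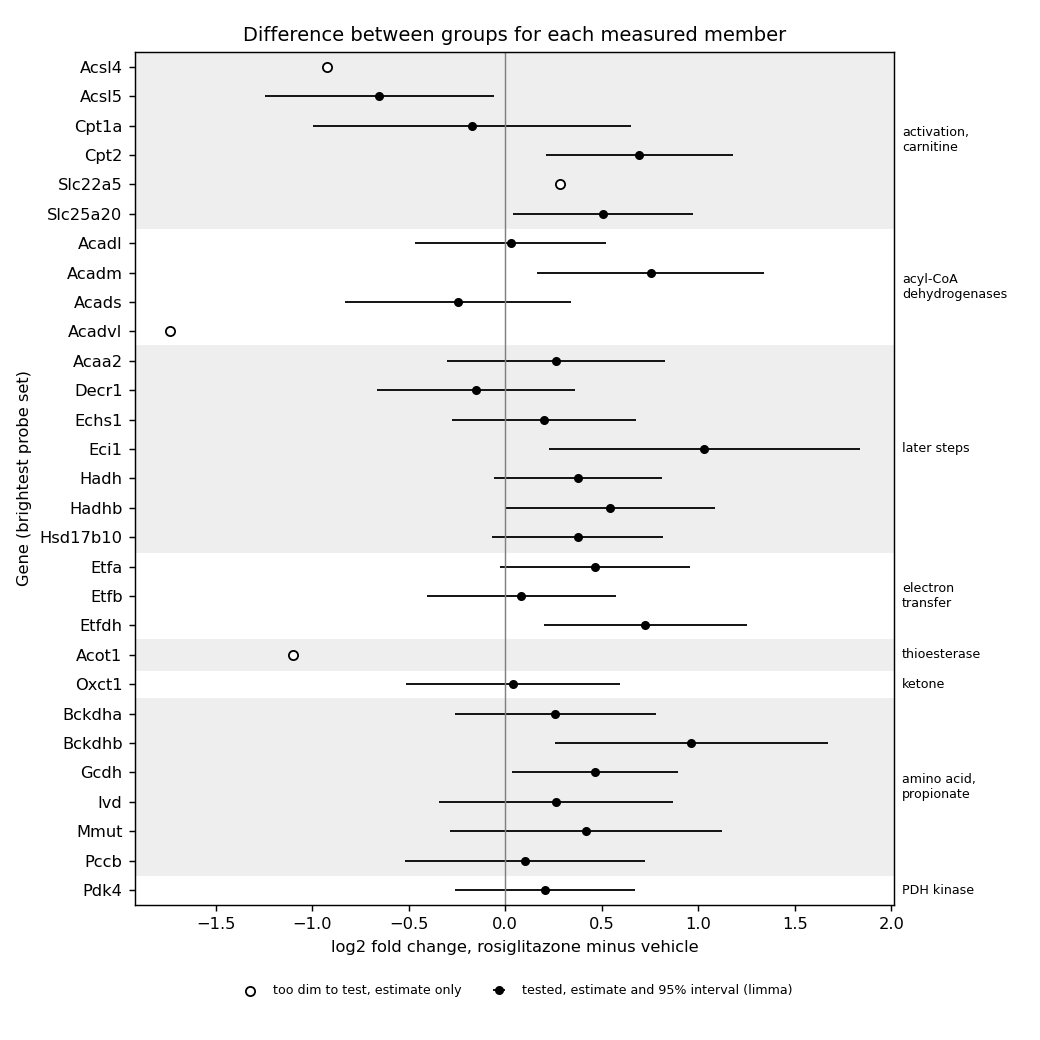
Log2 fold change (rosiglitazone minus vehicle) of each measured gene, with 95% intervals from limma for the 25 tested genes and open circles for the 4 too dim to test. The intervals of Cpt2, Slc25a20, Acadm, Eci1, Etfdh, Bckdhb and Gcdh lie above 0 and that of Acsl5 below 0, before adjustment for the number of probe sets.

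Electron transfer genes lay above 0 in 3 of 3. Etfdh, the dehydrogenase that passes electrons from ETF to ubiquinone, had 5938 and 5610 after rosiglitazone and 3695 and 3297 after vehicle. The groups differed by a log2 fold change of 0.73 ± 0.23 (SE), or 1.65-fold (adjusted p = 0.283). The replicates of each group lay close together and the estimate stayed between 0.64 and 0.81 with any 1 array left out. Etfa, the alpha subunit of ETF, had 27138 and 19786 against 17086 and 16465. Its log2 fold change was 0.47 ± 0.22 (SE) (adjusted p = 0.483), without overlap, from 0.24 to 0.69 with either rosiglitazone array left out. Etfb, the beta subunit, had 49322 and 59689 against 46001 and 56918 on its brightest probe set, a log2 fold change of 0.08 with overlap. Its second probe set had 2384 and 3021 against 1526 and 1891, without overlap, and 0.66 (adjusted p = 0.476). The 2 probe sets of Etfb thus differed in whether the groups separated.

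Genes of amino acid and propionate breakdown, which feed the same ETF or end in succinyl-CoA, lay above 0 in 6 of 6 measured. Bckdhb, the beta subunit of the branched-chain ketoacid dehydrogenase, had 7511 and 4135 after rosiglitazone and 2691 and 3032 after vehicle. Its log2 fold change was 0.96 ± 0.31 (SE), or 1.95-fold (adjusted p = 0.290). With rosiglitazone replicate 1 left out it was 0.53, and with replicate 2 left out 1.39, where its adjusted p came nearest to the threshold at 0.0516. Bckdha, the alpha subunit of the same enzyme, had 7521 and 7409 against 5418 and 7170, a log2 fold change of 0.26 (adjusted p = 0.743). Its arrays did not overlap, but the vehicle arrays differed more than the groups did.

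Gcdh, the glutaryl-CoA dehydrogenase of lysine and tryptophan breakdown, had the tightest replicates of the members with an unadjusted p under 0.05. It had 30609 and 31902 against 22069 and 23219, and a log2 fold change of 0.47 ± 0.19 (SE), or 1.38-fold (adjusted p = 0.420). Its second probe set, at 1727 and 1543 against 788 and 1434, pointed the same way with 0.62. Ivd, the isovaleryl-CoA dehydrogenase of leucine breakdown, had 2956 and 3608 against 2541 and 2919, with treated replicate 1 just above vehicle replicate 4. Mmut had 2782 and 2010 against 1686 and 1852, a log2 fold change of 0.42 (adjusted p = 0.687) without overlap. Pccb, a subunit of propionyl-CoA carboxylase, had 4068 and 4586 against 3263 and 4944 and overlapped, at 0.10.

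The ketone and fuel-choice genes showed little separation. Oxct1, the transferase that lets tissues other than liver use ketone bodies, had 4622 and 4018 after rosiglitazone and 3808 and 4619 after vehicle. Its log2 fold change was 0.04 with a 95% interval from -0.52 to 0.59. Pdk4, the kinase that switches off pyruvate dehydrogenase when fat is burned and a known PPAR target, had 39905 and 31627 against 29865 and 31748. The treated replicate 2 fell among the vehicle arrays, and the log2 fold change was 0.21 with a 95% interval from -0.26 to 0.67 (adjusted p = 0.779). Acot1, a cytosolic thioesterase, was too dim to test, at 144 and 442 against 674 and 445. Its groups were set apart only by 442 against 445.

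In the median, the members' replicate gaps were smaller than their differences but of similar order. Over the 29 genes the median gap between the rosiglitazone arrays was 0.29 on the log2 scale and that between the vehicle arrays 0.23, beside a median absolute log2 fold change of 0.38. Over all 8251 measured genes the same values were 0.42, 0.37 and 0.38. The groups of 6 genes, Cpt2, Slc25a20, Hadh, Hsd17b10, Etfdh and Gcdh, were separated by at least the wider of the 2 replicate gaps with rosiglitazone higher. This count, defined after the values were seen, was 6 of 29 where 5.78% of all genes had such a gap.

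The arrays did not share the signal evenly. Of the 29 genes 16 were brightest on rosiglitazone replicate 1 and 5 on rosiglitazone replicate 2, while 12 were dimmest on vehicle replicate 3 and 9 on vehicle replicate 4. In 8 genes, Acadm, Hadhb, Echs1, Eci1, Cpt2, Slc25a20, Etfa and Etfdh, intensity stepped down from rosiglitazone replicate 1 to rosiglitazone replicate 2, vehicle replicate 3 and vehicle replicate 4, an order that 4.75% of all genes had. The actin 3' signal exceeded the 5' signal, a gauge of RNA integrity, 7.74-fold and 9.62-fold after rosiglitazone and 8.88-fold and 11.9-fold after vehicle, lowest on rosiglitazone replicate 1 and highest on vehicle replicate 4, with overlap between the groups. The same measure for Gapdh was 8.79-fold and 10.8-fold against 11.1-fold and 11.1-fold, without overlap. The part of RNA integrity in the members' values was not tested.

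**Figure D4:**
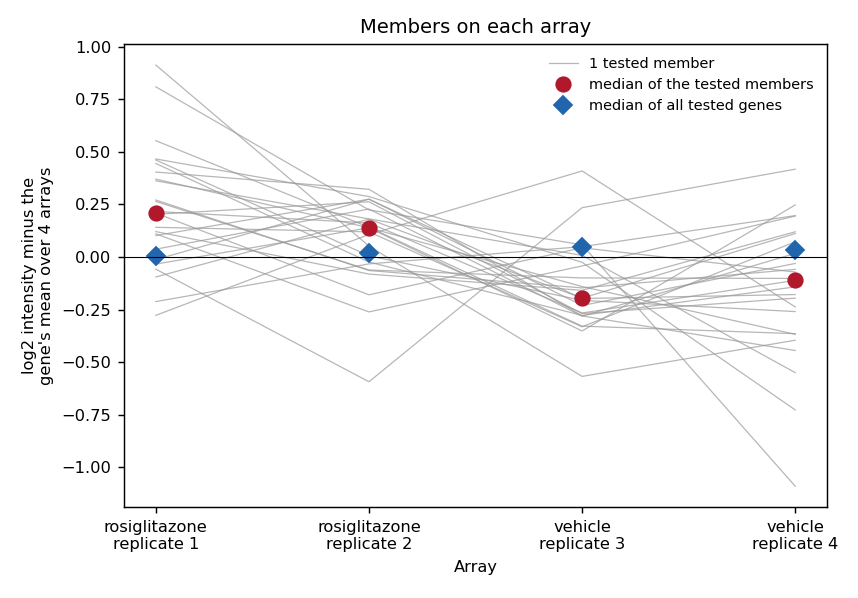
Log2 intensity of each tested member on each array minus that gene's mean over the 4 arrays (grey lines join the same gene), with the median of the 25 members and of all 5465 tested genes. Member medians were 0.21 and 0.14 for rosiglitazone and -0.20 and -0.11 for vehicle, and those of all genes lay between 0.01 and 0.05.

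Neighbouring pathways were read from the same fit, in which 0 genes of these lists passed the adjusted p. Over all measured genes, 18.0% were higher and 21.1% lower without overlap. For all tested genes, the shares at an unadjusted p under 0.05 in limma were 5.05% higher and 5.98% lower. Of 18 further measured mitochondrial fatty acid oxidation and ketone genes 13 lay above 0, 8 higher and 2 lower without overlap, with a median log2 fold change of 0.20. At an unadjusted p under 0.05, 3 of 16 tested were higher and 0 lower. They were Acot13, a mitochondrial thioesterase (0.85, adjusted p = 0.129), Mlycd, the malonyl-CoA decarboxylase that relieves the inhibition of Cpt1 (0.84, adjusted p = 0.196), and Ech1, a dienoyl-CoA isomerase of mitochondria and peroxisomes (0.76, adjusted p = 0.215). Mlycd had 8799 and 11757 after rosiglitazone and 5934 and 5474 after vehicle, so that it separated the groups where Cpt1a did not.

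Peroxisomal oxidation genes had larger estimates, with 13 of 14 measured above 0, 9 higher and 0 lower without overlap, and a median of 0.71. Of 13 tested 6 were higher and 0 lower at an unadjusted p under 0.05, Ech1, which is on both lists, among them. Acaa1b, a peroxisomal thiolase, had 25740 and 34079 against 13808 and 13567 and the smallest adjusted p of these lists (0.0780). Pex11a, a factor of peroxisome division, had a log2 fold change of 0.91 and the transporter Abcd3 0.64. Whether the peroxisomal and mitochondrial lists differ was not tested.

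The pyruvate dehydrogenase side lay above 0 in 6 of its 8 measured genes, with a median of 0.13. At an unadjusted p under 0.05, 0 of 6 tested lay in either direction. Dlat and Dld, subunits of the complex, had 0.47 each (a second Dlat probe set had -0.17), while Pdk1, a kinase of the same family as Pdk4, had -0.53, with 1749 and 1955 against 2599 and 2746. Among 15 measured regulators 10 lay above 0, 4 below and 1 at 0, with a median of 0.46. At an unadjusted p under 0.05, 3 of 10 tested were higher and 1 lower. Ppara, the fatty acid receptor that drives oxidation genes in many tissues, had 15773 and 22435 against 10019 and 10141, a log2 fold change of 0.90 (adjusted p = 0.154). Rxra, the partner of PPARs, had 1.62 (adjusted p = 0.149), but its other probe set had 0.31 with overlap. Lpin1, a phosphatidate phosphatase and coactivator, had 0.56 and Rxrb -0.81.

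**Figure D5:**
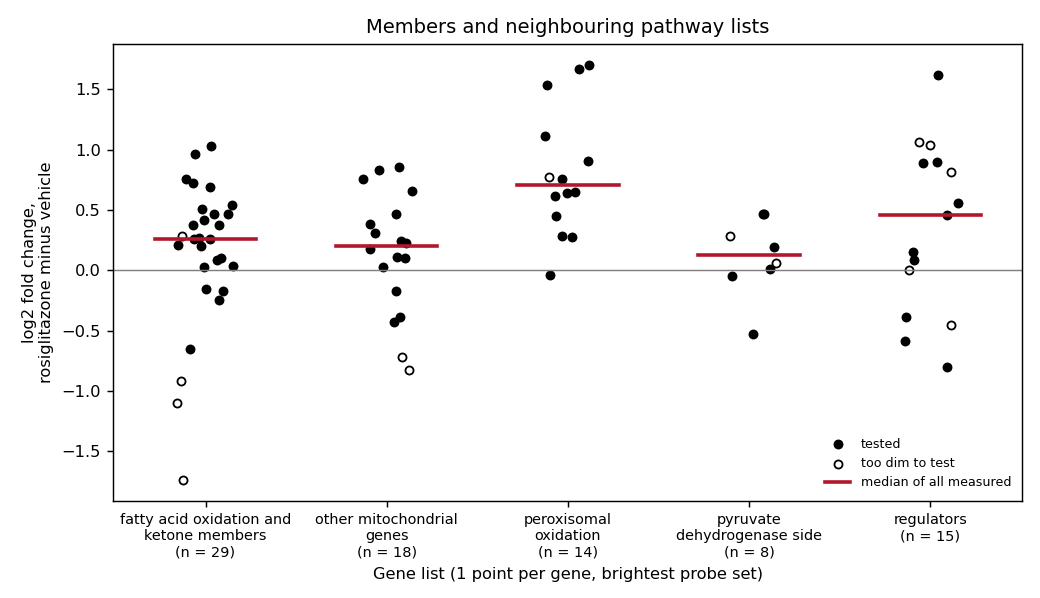
Log2 fold change (rosiglitazone minus vehicle) of the 29 measured members and of 4 neighbouring lists, 1 point per gene, open where too dim to test, with the median of each list as a bar. The members' median was 0.26, that of the peroxisomal genes 0.71 and that of the pyruvate dehydrogenase side 0.13.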

How the data were processed

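RNA of 4 aortic samples was hybridised to the Affymetrix MG-U74Av2 array, the platform that the header of the probe table identifies. The deposited values are linear intensities, given as whole numbers for each probe set. The software and background correction behind them are not given in the sources used here. After trimming 2% from both tails, every array had a mean intensity of 1501, so the values had been scaled together. They hold no detection calls. Array medians differed by at most 0.13 on the log2 scale, and no further scaling was applied.

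Control probe sets (66) were dropped. Of the other 12422, 10833 had 1 symbol, 396 several and 1193 none listed. Symbols were updated by gene identifier through a RefSeq table of GRCm38.p6. Values under the 20th percentile (148) were set to it, and 7134 probe sets with a mean log2 intensity at or above the 40th percentile (414) were tested in R 4.3.3 with limma 3.58.1 (lmFit, eBayes with an intensity trend, two-sided, Benjamini-Hochberg over all 7134, threshold 0.05). The fit had 2 residual degrees of freedom and a median of 7.14 prior ones. The procedure was run on simulated data with changes larger than any among the members. That run does not gauge how well differences of the members' size are found. With 2 arrays per group an exact permutation p cannot go below 0.333, so none is given.

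Every measured member is named; from the other lists at most 4 genes each, those with the smallest unadjusted p. Ucp1, Cidea, Adipoq, Lep, Acta2 and Myh11 are named as defining markers, and Fabp3, Tagln and Cd14 as the markers past the adjusted p. The members and lists were chosen with earlier results of these data known, so the lists give no independent support. The entry Hadhsc of the mitochondrial list is an old name of the member Hadh and was dropped from it. Alternatives were other floors, filters, scalings and moderation, the mean over probe sets, and each array left out.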

Additional observations from a re-analysis of the deposited data

How the results depend on the processing

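The count of members past the adjusted p stayed at 0 under all 12 alternatives run, with 25 of the 29 tested, or 29 with no filter on dim probe sets, and the count above 0 was between 20 and 23 with 1 array left out. The members' median log2 fold change of 0.26 became 0.34 with each array centred on its median, a step that moves all probe sets by 0.08. It was 0.37 with the mean over all probe sets of a gene, which covers the 25 tested genes, and ran from 0.16 without vehicle replicate 3 to 0.36 without vehicle replicate 4. Over all probe sets, the 26 calls became 0 with no filter on dim probe sets (1202 of 12422 then had an unadjusted p under 0.05), 7 without the intensity trend, and 1 to 78 with 1 array left out; the causes were not tested. With 1 array left out the lone array of its group is assumed to vary like the others. The members showed a change of sign in 9 of 29 genes in some alternative. Under quantile normalization Acadl turned to -0.056, and with the mean over its probe sets Acads turned to 0.33. With 1 array left out the log2 fold change ran from -0.17 to 0.22 for Acadl, from -0.49 to 0.15 for Cpt1a, from -0.53 to 1.09 for Slc22a5, from -0.10 to 0.18 for Oxct1, from -0.34 to 0.034 for Decr1, from -0.069 to 0.24 for Etfb, from -1.86 to 0.023 for Acsl4 and from -0.19 to 0.40 for Pccb. No paired analysis was possible because the groups share no replicate numbers. The files give no signal over background per probe set, so the dim genes Acadvl, Acot1, Acsl4 and Slc22a5 are limited most.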
